A study of Mus musculus with 36 samples.

Results

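Myc and 38 other genes, most of which build ribosomes, made up a module of 39 genes. They were followed in liver, spleen and thymus of mice after X-rays and in mice with a shortened p53. The members were chosen by symbol, as Myc itself, Gnl3, Pprc1 and factors of the nucleolus, with earlier results of these data known. All 39 were found in both deposited tables by gene number, among 19001 genes in the paired-end table and 17697 in the single-end table. They comprised 2 regulators, 4 genes of RNA polymerase I and its activity, and 5 of general nucleolar proteins. Another 4 were of the box C/D and U3 small nucleolar ribonucleoproteins (snoRNPs), 11 of small subunit assembly and 13 of large subunit assembly. The 4 polymerase genes are the subunit genes Polr1a, Polr1b and Polr1c, and Mybbp1a, which encodes no subunit.

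Ribosomes are made in the nucleolus, where RNA polymerase I transcribes a long ribosomal RNA precursor. Small nucleolar RNPs guide its modification and first cleavages, and separate sets of factors then fold and trim the small and the large subunit. Myc, a transcription factor that pairs with Max on the DNA letters CACGTG, is a known activator of this programme in growing cells, while p53 is the transcription factor that answers DNA damage and is itself stabilised when ribosome assembly fails.

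The study sequenced total RNA of mice titled d24, whose p53 has lost its C-terminus, and of wild-type (wt) mice, and its title asks what that C-terminus does in liver and in the response to radiation. The first set held 18 paired-end libraries, 3 each of wt liver, spleen and thymus 3 h after 2 Gy of X-rays and of the same wt tissues without treatment. In the second set were 18 single-end libraries, 3 each of d24 and of wt liver, spleen and thymus, all with xray in their titles. Of these, d24 spleen, wt liver and wt thymus are labelled with 2 Gy and 3 h, and the remaining groups carry no dose or time. Treatment tags disagree with these titles, since they read control for 9 single-end libraries, namely d24 liver, d24 thymus and wt spleen, and the cell type tag reads WT for the 9 titled d24. Groups follow the titles here, and genotype and tagged treatment cannot be told apart within a single-end tissue. Strain, age, sex, the number of mutant alleles and the animals behind each library are not stated in the labels, so p-values measure the spread between these libraries only.

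Levels are the deposited normalised signal, a read count per gene scaled by the effective size of its library, and are given as mean ± SD of 3 libraries. Differences are log2 of signal plus 0.5, given ± SE, and a gene is said to have risen or fallen where limma's Benjamini-Hochberg adjusted p over all genes was under 0.05. Libraries held 44348579 to 81322683 reads in the paired-end table and 20481048 to 38042710 in the single-end table, so 1 read was worth 0.00991 to 0.0377 and 0.0171 to 0.0828 units of signal. A gene-level count cannot show the p53 deletion, so the d24 label has no check in these files. Tissue markers followed the tissue labels: summed signal of 12 hepatocyte markers was 361398 to 435283 in paired-end liver and 47.3 to 1665 in spleen and thymus. Foxn1, the thymic epithelial regulator, was at 0 in every paired-end liver library. Tissue pieces were used, so fewer cells of a type and less RNA per cell cannot be told apart in any comparison.

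Irradiated wt thymus had less RNA of nearly the whole module. Of 39 members, 34 fell and 0 rose, whereas 11.6% of the 13810 genes tested fell and 9.77% rose. The median difference of the members was -0.56, a fold of 0.678, against 0.01 for all genes tested. Both regulators fell, as did all 5 nucleolar protein genes, 3 of 4 polymerase genes, 3 of 4 snoRNP genes, 10 of 11 small subunit genes and 11 of 13 large subunit genes. In 35 of the 39 every irradiated library lay below every untreated one, as in 22% of all genes, and in 0 every one lay above, as in 18.6% of all genes. DESeq2 found 35 members lower, beside 13.7% of all genes, and edgeR 34, beside 11.9%. Leaving out any 1 library left 28 to 32, beside 6.18% to 10.7% of all genes. With all 18 paired-end libraries in 1 fit, which shares the spread of liver and spleen, 22 fell, beside 5.25% of all genes.

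Myc had 16.4, 19.7 and 21.4 units in irradiated thymus, against 40.8, 45.3 and 44.4 in untreated thymus. Its mean of 19.2 ± 2.59 in irradiated and 43.5 ± 2.37 in untreated thymus gave a difference of -1.17 ± 0.11 (limma, adjusted p = 0.000128). Pprc1, which encodes a transcriptional coactivator of the family that controls mitochondrial genes, had 12.7, 12.6 and 14.9 units in irradiated and 29.0, 26.5 and 34.9 units in untreated thymus. Every irradiated library lay below every untreated one for both genes, and the Pprc1 difference was -1.13 ± 0.12 (adjusted p = 0.000324).

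Gnl3, which encodes the GTP-binding nucleolar protein nucleostemin, had the smallest p of the module. It had 20.3, 18.04 and 16.9 units in irradiated thymus, against 46.9, 48.4 and 52.4 units in untreated thymus, a difference of -1.40 ± 0.09 (adjusted p = 1.32e-05). The groups were far apart relative to their spread. Nop58, a core protein of box C/D snoRNPs, had 51.5, 49.6 and 45.2 units in irradiated and 98.8, 105 and 107 units in untreated thymus, and fell by 1.08 on the log2 scale (SE 0.08, adjusted p = 2.85e-05). Nolc1, a nucleolar phosphoprotein that binds snoRNPs, had 32.4, 34.1 and 35.4 units in irradiated and 60.4, 71.1 and 75.7 units in untreated thymus (-1.01 ± 0.10, adjusted p = 0.000159). Again no library of one group reached the other. Wdr43, part of the complex that first binds the ribosomal RNA precursor, had 37.4, 39.9 and 36.3 units in irradiated and 64.4, 67.4 and 71.0 units in untreated thymus (-0.83 ± 0.08, adjusted p = 0.000137).

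**Figure D1:**
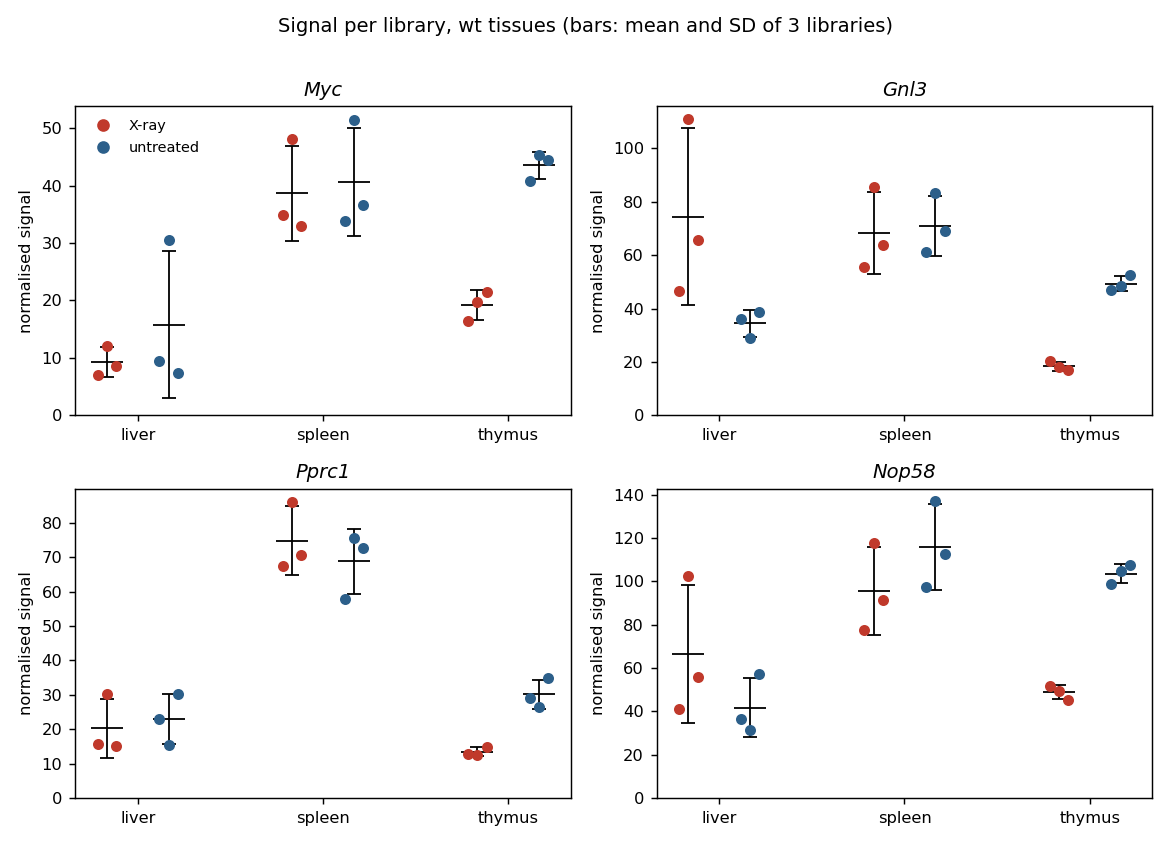
Normalised signal (y axis) of Myc, Gnl3, Pprc1 and Nop58 in each paired-end wt library, with X-ray left of untreated in each tissue and bars for mean and SD of 3 libraries. In thymus the groups do not overlap for any of the 4 genes, in spleen they overlap for all 4, and in liver 1 X-ray library stands above the other X-ray libraries for Gnl3 (111) and Nop58 (102).

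Size of the fall differed within the module. The 2 regulators had a median of -1.15, the 5 nucleolar protein genes -0.71, the 4 snoRNP genes -0.64, the 11 small subunit genes -0.63, the 13 large subunit genes -0.49 and the 4 polymerase genes -0.44. Among polymerase genes, Polr1b, the second largest subunit, had -0.91 ± 0.12, while Polr1c, a subunit that polymerases I and III share, had -0.09 ± 0.08 and was not called. Tsr1, which in yeast acts late on the small subunit, had -0.97 ± 0.11. In the complex of Bop1, Pes1 and Wdr12, which matures the large subunit, Bop1 fell by 0.46 and Pes1 fell by 0.28 on the log2 scale. Wdr12 had 63.6, 61.1 and 48.1 units in irradiated and 51.6, 52.5 and 49.6 units in untreated thymus, and at 0.16 ± 0.11 it was the only positive difference of the 39 (adjusted p = 0.315). The other members without a call were Utp20 (-0.07 ± 0.11), Rrp1 (-0.09 ± 0.09) and Rrp9 (-0.33 ± 0.10, adjusted p = 0.0502).

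Related lists were read in thymus as well. They too were chosen with earlier results of these data known and are no separate support. Beside the list counts, 11.6% of the 13810 genes tested fell in thymus and 9.77% rose. Of 11 genes of the H/ACA snoRNPs, which guide pseudouridylation, 7 fell and 0 rose, with Dkc1, the pseudouridine synthase, at -1.003 ± 0.09 and Gar1 at -0.82 ± 0.10. Other small subunit factors fell in 22 of 40 cases, among them Wdr75 (-0.76 ± 0.08) and Utp18 (-0.78 ± 0.09), and other large subunit factors in 28 of 48, among them Rrp1b (-0.71 ± 0.09) and Nifk (-0.61 ± 0.08). Of 23 measured genes of polymerase I and III transcription, 4 fell and 1 rose. The ones of smallest p were Gtf3c1, a polymerase III initiation factor, which rose by 0.81 ± 0.09, and Bdp1, another, which fell by 0.44 on the log2 scale (SE 0.08).

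Known Myc targets outside the ribosome, in nucleotide, polyamine and folate synthesis and other growth functions, fell in 25 of 34 cases and rose in 2, with a median of -0.48. Srm, the spermidine synthase, had 13.1 ± 0.403 units in irradiated and 27.7 ± 0.152 units in untreated thymus, a difference of -1.05 ± 0.08. Ppat, which starts purine synthesis, had -0.996 ± 0.09. In the network of Myc partners, 3 of 14 tested genes rose and 2 fell. Mxd4, a Max partner that represses Myc sites, had 51.6 ± 3.28 units in irradiated and 35.2 ± 2.44 units in untreated thymus (0.55 ± 0.08), and Mlx, a Max-like factor, had -0.45 ± 0.10.

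Other markers shifted in the same thymus libraries. Proliferation markers fell in 14 of 21 cases, with sums of 2435 to 2715 in irradiated and 3188 to 3854 in untreated thymus, among them Ccnb1 (-0.84 ± 0.11) and Ccne2 (-1.10 ± 0.15). Thymocyte and T cell markers fell in 2 of 12 cases, with sums of 5970 to 7505 in irradiated and 5983 to 6842 in untreated thymus. Thymic epithelial markers rose in 6 of 10 cases (sums of 1949 to 2230 and 1336 to 1401), and macrophage markers in 4 of the 8 tested (281 to 424 and 216 to 272). Neutrophil and precursor markers rose in 6 of the 7 tested (50.3 to 114 and 29.5 to 49.0). Hepatocyte markers summed to 1665 in X-ray library 3 and to 64.2 to 234 in the other 5 thymus libraries. All 12 p53 targets rose, with sums of 1884 to 2113 in irradiated and 539 to 572 in untreated thymus. The part of cell composition and of proliferation in the fall of the module was not tested.

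**Figure D2:**
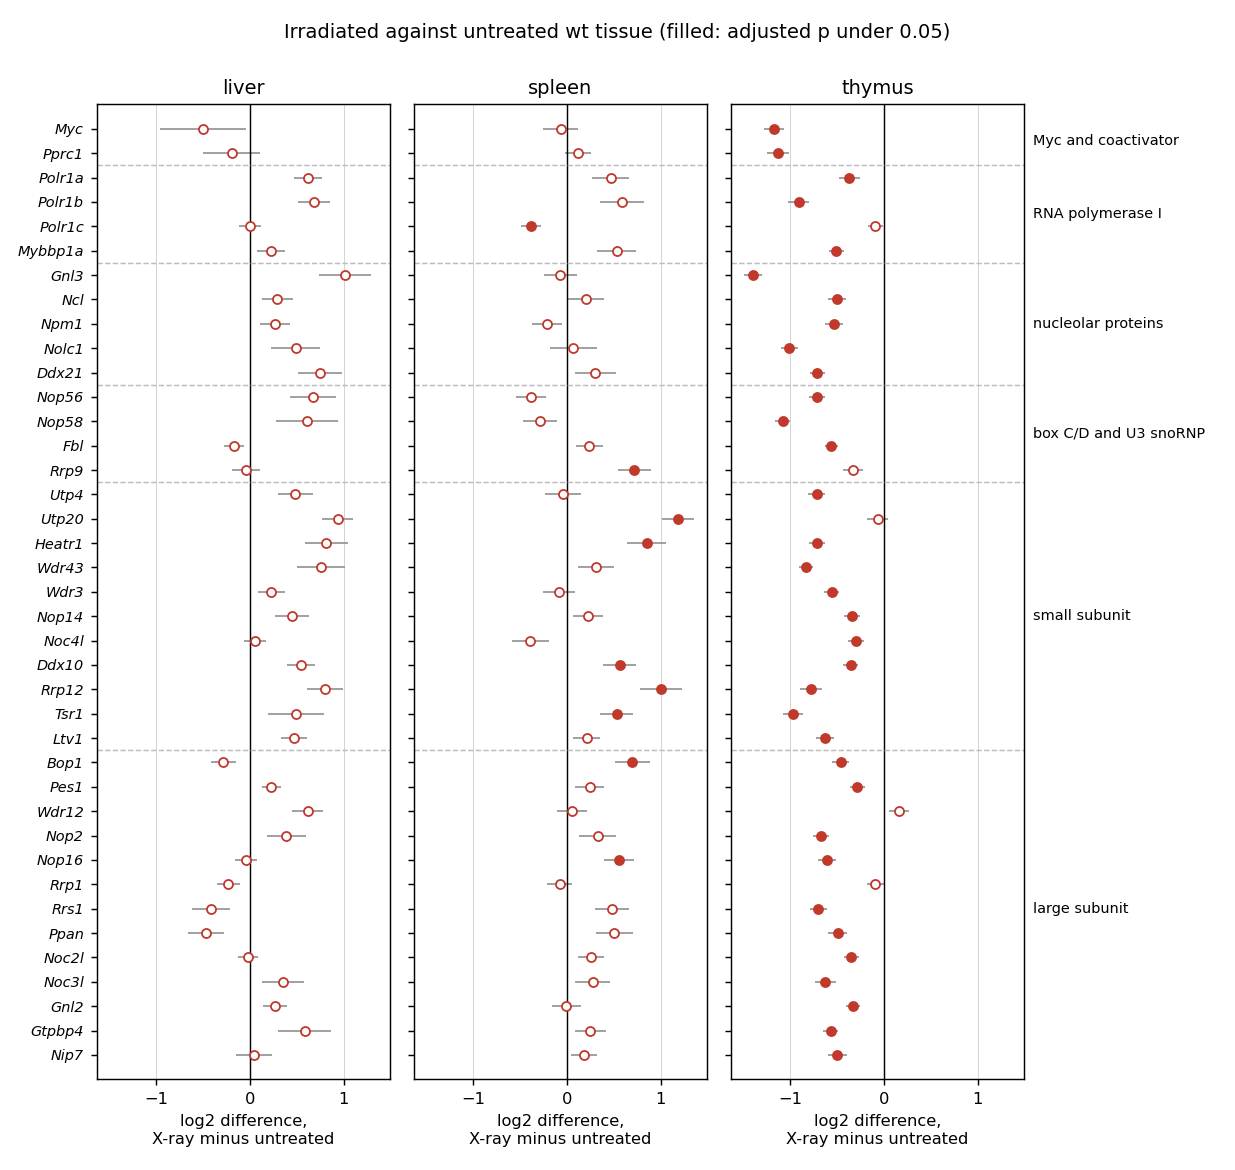
Log2 difference of X-ray minus untreated (x axis, ± SE) for each of the 39 genes (y axis, grouped by role) in wt liver, spleen and thymus, with filled points for adjusted p under 0.05. In thymus 34 points are filled and all of those lie below 0, in spleen 8 filled points lie above 0 and 1 below, and in liver none is filled.

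Promoters of members were read for CACGTG, the letters on which Myc and Max bind, which read the same on both strands. A RefSeq window of 300 bases (GRCm38.p6, 250 before and 50 after the start) was matched for 32 members, and 8 of them (25%) held the letters. Of all 27025 genes with a window, 8.09% held them, and of the 13841 among these in the paired-end table, 10.4% did. Members with the letters fell in thymus in 7 of 8 cases with a median of -0.65, and the 24 without them in 20 cases with a median of -0.53. A match is a description of the letters only. The letters and their surroundings are shown for the 8 members below, 5′ to 3′ on the strand of the gene with CACGTG in capitals, since the module was assembled around Myc. They began 60 bases before the start in Nop2 and after the start in the other 7, and windows of Mybbp1a and Utp20 end with the RefSeq window. Utp20 was the one not called in thymus.
Ltv1: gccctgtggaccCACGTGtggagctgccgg
Mybbp1a: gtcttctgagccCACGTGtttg
Nop2: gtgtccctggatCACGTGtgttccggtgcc
Pes1: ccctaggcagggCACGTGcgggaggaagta
Tsr1: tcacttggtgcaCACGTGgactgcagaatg
Utp20: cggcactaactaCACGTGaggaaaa
Utp4: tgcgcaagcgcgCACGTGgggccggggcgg
Wdr43: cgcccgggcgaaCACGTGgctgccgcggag

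Wdr43 was the only one of these 8 among the 5 members of smallest p in thymus, and its whole window is therefore given (GRCm38.p6, chr17:71615965-71616264, plus strand, CACGTG in capitals, 17 bases after the start).
Wdr43: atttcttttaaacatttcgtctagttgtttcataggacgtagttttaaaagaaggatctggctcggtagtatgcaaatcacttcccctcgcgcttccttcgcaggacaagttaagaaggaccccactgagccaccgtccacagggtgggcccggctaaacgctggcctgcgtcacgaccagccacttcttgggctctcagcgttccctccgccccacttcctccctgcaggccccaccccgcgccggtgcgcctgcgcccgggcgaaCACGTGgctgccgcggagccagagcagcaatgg

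Irradiated wt spleen did not show this fall. There 8 members rose and 1 fell, where 19.5% of the 13389 genes tested rose and 20.4% fell, so the share of members that rose was close to that of all genes and the share that fell was below it. The median difference of the members was 0.24, against -0.03 for all genes tested. Small subunit genes made up 5 of the 8 that rose.

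Utp20, which in yeast belongs to the small subunit processome, had 60.0, 87.3 and 70.1 units in irradiated spleen, against 27.4, 38.2 and 29.2 units in untreated spleen. The groups did not overlap, and the difference was 1.18 ± 0.17 (limma, adjusted p = 0.00117). Rrp12, an export factor of pre-ribosomes in yeast, had 25.7, 43.7 and 31.0 units in irradiated and 12.3, 21.3 and 15.7 units in untreated spleen (1.002 ± 0.23, adjusted p = 0.00882). Heatr1, a processome protein that also promotes polymerase I transcription, had 67.0, 112 and 86.6 units in irradiated and 40.9, 60.8 and 44.3 units in untreated spleen (0.85 ± 0.21, adjusted p = 0.0115). For all 3 genes the second library of each group was the highest.

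Rrp9, the U3 snoRNP protein, had 26.5, 33.0 and 21.6 units in irradiated and 13.1, 18.9 and 16.5 units in untreated spleen (0.72 ± 0.18, adjusted p = 0.0129). Bop1 had 48.9, 76.3 and 55.9 units in irradiated and 30.1, 42.6 and 37.4 units in untreated spleen (0.70 ± 0.18, adjusted p = 0.0158). Ddx10 (0.56 ± 0.17), Nop16 (0.55 ± 0.16) and Tsr1 (0.53 ± 0.18) rose as well. Polr1c was the one that fell, with 35.4, 30.9 and 29.4 units in irradiated and 42.1, 40.7 and 42.2 units in untreated spleen (-0.38 ± 0.11, adjusted p = 0.0199). The groups did not overlap, but the call was lost without any 1 of the 3 untreated libraries and without X-ray library 3, where the differences were -0.40 to -0.33.

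Genes that led the fall in thymus showed no call in spleen. Myc had 34.9, 48.1 and 33.0 units in irradiated and 33.9, 51.4 and 36.7 units in untreated spleen (-0.07 ± 0.19, adjusted p = 0.799). Gnl3 had 55.5, 85.4 and 63.7 units in irradiated and 61.1, 83.2 and 68.8 units in untreated spleen (-0.07 ± 0.18, adjusted p = 0.771). Pprc1 had 67.5, 86.2 and 70.7 units in irradiated and 58.0, 75.7 and 72.9 units in untreated spleen (0.12 ± 0.14, adjusted p = 0.522). Groups overlapped for all 3, and again the second library of each was the highest.

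Libraries with the same number moved together in spleen, with correlations of 0.177 to 0.241, and the numbers were taken to pair them. The labels name no pairs, so the pairing was inferred from these same values and the blocked calls depend on it. With the replicate number as a block, 15 members rose and 3 fell, beside 21.2% and 21.4% of all genes, which added 7 higher calls (0.31 to 0.59) and 2 lower calls and lost none. The added higher calls were Polr1a, Polr1b, Mybbp1a, Wdr43, Nop2, Rrs1 and Ppan, and the added lower calls were Nop56, a box C/D core protein (-0.38 ± 0.10), and Noc4l, a small subunit factor (-0.39 ± 0.11). Scaling by column totals moved the median of all genes to -0.19 and left 2 higher and 1 lower, with 8.64% of all genes higher and 26.5% lower. Leaving out untreated library 1 left 3 calls, beside 26.1% of all genes called, and leaving out untreated library 3 left 5, beside 30% of all genes. Without X-ray library 1 there were 18 calls, beside 53.3% of all genes.

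**Figure D3:**
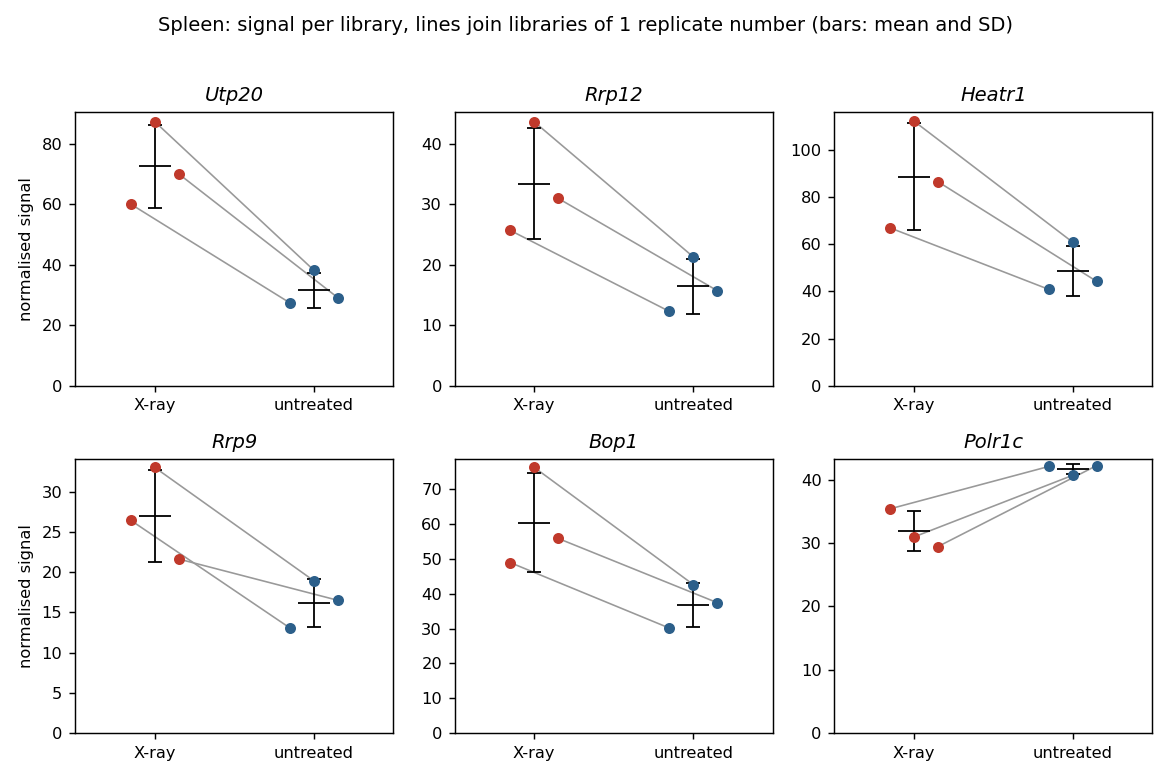
Normalised signal (y axis) of the 5 members of smallest p that rose in spleen and of Polr1c, which fell, with X-ray left of untreated, bars for mean and SD, and lines that join libraries with the same replicate number. All 3 lines run higher on the X-ray side for Utp20, Rrp12, Heatr1, Rrp9 and Bop1 and lower for Polr1c.

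Other spleen lists gave mixed directions, where 19.5% of the 13389 genes tested rose and 20.4% fell. In both lists of other subunit factors the shares that rose and that fell were below those of all genes. Among other large subunit factors, 7 of 48 rose and 3 fell, and Mdn1, the giant ATPase that remodels the large subunit, had 134 ± 33.8 units in irradiated and 32.2 ± 2.31 units in untreated spleen (2.01 ± 0.18, adjusted p = 0.000129). Other small subunit factors rose in 3 of 40 cases, such as Pwp2 (0.73 ± 0.18), and fell in 2, such as Ddx47 (-0.38 ± 0.10). H/ACA genes rose in 2 of 11 cases and fell in 2. Of the polymerase I and III genes, 5 of 23 rose, led by Polr1e (1.08 ± 0.18) and Taf1c (0.65 ± 0.13), and 3 fell. Myc targets outside the ribosome rose in 6 of 34 cases, with the nucleoside diphosphate kinase Nme2 at 0.98 ± 0.11, and fell in 10, with the purine enzyme Paics at -0.94 ± 0.13. In the Myc network Max fell by 0.42 on the log2 scale (SE 0.10).

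Composition markers moved in the irradiated spleen libraries. Proliferation markers fell in 12 of 21 cases, with sums of 5350 to 9323 in irradiated and 8986 to 9521 in untreated spleen. B cell markers rose in 5 of 10 and fell in 1 (sums of 1530 to 2280 and 1221 to 1434), and macrophage markers rose in 9 of the 9 tested (879 to 1374 and 508 to 689). Neutrophil and precursor markers rose in 6 of the 11 tested, with sums that overlapped (485 to 1102 and 371 to 504). Summed erythroid markers were 114106 to 181160 in irradiated and 68709 to 102218 in untreated spleen, although none of the 12 passed the test. Hepatocyte markers, which spleen should lack, rose in 9 of the 9 tested but summed to 100.5 to 584.8 in irradiated and 47.3 to 69.0 in untreated spleen. The part of these shifts in the module's values was not tested.

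Irradiated wt liver had no member past the threshold, and few genes at all passed it. Of 39 members 0 rose and 0 fell in limma, where 0.204% of the 13250 genes tested rose and 0.0377% fell. At an unadjusted p under 0.05 there were 14 higher members and 1 lower, where 9.56% of all genes were higher and 12.3% lower. By edgeR 0 were called, and DESeq2 called 10, all higher, with 3.39% of all genes higher. The median difference was 0.35, against -0.05 for all genes tested, and 29 of 39 differences were positive. For 14 members every irradiated library lay above every untreated one, as in 13.5% of all genes, and for 0 every one lay below, as in 13.9% of all genes.

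Gnl3 had 46.7, 111 and 65.6 units in irradiated liver, against 35.96, 28.9 and 38.7 units in untreated liver, a difference of 1.017 ± 0.28 (limma, adjusted p = 0.183). The groups did not overlap, but the irradiated libraries differed among themselves by more than the untreated ones. Myc had 7.08, 12.1 and 8.61 units in irradiated and 9.54, 30.5 and 7.33 units in untreated liver (-0.50 ± 0.46, adjusted p = 0.512). Its groups overlapped, and without untreated library 2 the sign turned to 0.11. Pprc1 had 15.7, 30.1 and 15.01 units in irradiated and 23.0, 15.5 and 30.1 units in untreated liver (-0.19 ± 0.31, adjusted p = 0.711), and was 0.03 without untreated library 3. All 11 small subunit genes had positive differences, with a median of 0.50, while the large subunit genes had a median of 0.04. The lowest adjusted p of a member was 0.0952, for Utp20 at 0.94 ± 0.16.

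Irradiated liver libraries were unequal. The median of the 39 members stood 0.07 above the untreated mean in X-ray library 1, 0.68 in library 2 and 0.28 in library 3, while the untreated libraries lay at -0.04, -0.12 and 0.13. Without X-ray library 1, 15 members rose, and 7.10% of all genes did. With all 18 libraries in 1 fit, 12 rose, against 4.74% of all genes. X-ray library 2 had the highest summed p53 targets, at 844 against 644 and 707 in the other irradiated and 192 to 202 in the untreated libraries. That library also had the lowest summed proliferation markers, at 410 against 784 and 469 in the other irradiated and 703 to 1006 in the untreated libraries. Hepatocyte marker sums overlapped between the groups, at 385093 to 435283 in irradiated and 361398 to 414603 in untreated liver. Erythroid markers summed to 2841 in X-ray library 2, against 7034 and 5357 in the other irradiated and 5917 to 9481 in the untreated libraries. These groups overlapped, and 0 of the 12 erythroid markers were called. The part of these shifts in the module's values was not tested.

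**Figure D4:**
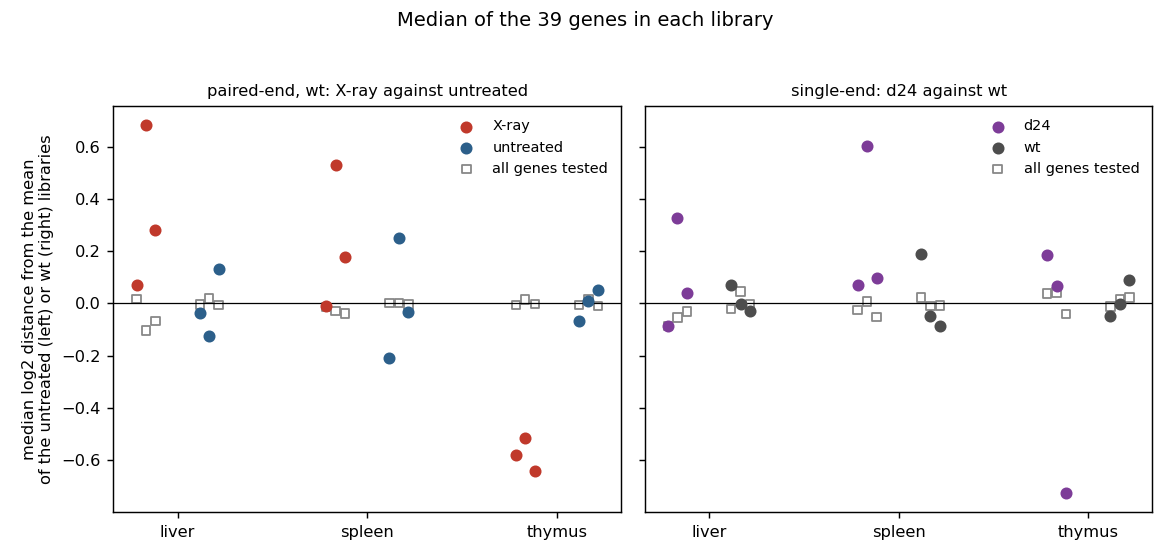
Median over the 39 genes of the log2 distance from the mean of the untreated (left panel) or wt (right panel) libraries of the same tissue (y axis), for each library, with X-ray or d24 left of its comparison group and open squares for all genes tested. The 3 irradiated thymus libraries lie between -0.64 and -0.51, irradiated liver spans 0.07 to 0.68, and 1 d24 thymus library lies at -0.73.

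The response to X-rays differed between tissues for most members. A limma F test of the interaction between treatment and tissue, over all 18 paired-end libraries, called 34 of 39 members, where it called 30.5% of the 15654 genes tested. Gnl3 had the highest F of 28.0 (adjusted p = 0.000306), with -1.40 in thymus, -0.07 in spleen and 1.017 in liver as its differences. Next came Rrp12 (F of 22.2, with -0.78 in thymus, 1.002 in spleen and 0.80 in liver) and Nop16, a large subunit factor (F of 19.8, with -0.61 in thymus, 0.55 in spleen and -0.04 in liver). Polr1b had an F of 18.9, Ltv1, an escort of the small subunit in yeast, 18.5 and Heatr1 17.7.

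Myc itself was not called by this test (F of 2.51, adjusted p = 0.197), with -0.50 ± 0.46 in liver beside -1.17 ± 0.11 in thymus. Pprc1 was (F of 7.51, adjusted p = 0.023). The 5 members without a call were Myc, Wdr12, Noc4l, Nip7 and Rrp1. Counted over the separate fits by tissue, 6 members rose in spleen and fell in thymus, and 28 fell in thymus without a call elsewhere. Differences were positive in liver and spleen and negative in thymus for 19 members, and negative in all 3 tissues for 2. In the separate fits 19.5% of all genes rose in spleen and 11.6% fell in thymus. Shares of all genes with these joint patterns were not counted, so the patterns are not read as particular to the module. With column-total scaling the F test called 19 members, beside 27.9% of all genes. Tests of the same interaction called 31 members with edgeR, beside 26.9% of all genes, and 35 with DESeq2, beside 36% of all genes.

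Between d24 and wt tissues no member passed the test in any organ. In liver 0 of 39 rose or fell in limma (0.277% and 0.248% of the 13695 genes tested rose and fell), in spleen 0 (1.04% and 1.24% of 13554) and in thymus 0 (0.00724% and 0% of 13818). Every d24 library lay above every wt one for 5 members in liver (7.56% of all genes), 5 in spleen (8.74%) and 0 in thymus (9.02%). Every d24 library lay below for 0 in liver (11.5% of all genes), 0 in spleen (10.6%) and 1 in thymus (7.55%), which was Polr1c. At an unadjusted p under 0.05 there was 1 higher member in liver (5.74% of all genes), 1 in spleen (5.85%) and 0 in thymus (6.61%), and 0 lower members in liver (7.62%), spleen (7.40%) and thymus (3.22%). DESeq2 and edgeR called 0 in each tissue. Median differences were 0.08 in liver, 0.27 in spleen and -0.15 in thymus, against -0.08, -0.05 and -0.02 for all genes tested.

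In liver Myc had 13.8, 39.02 and 6.53 units in d24 and 12.02, 8.78 and 7.48 units in wt (0.70 ± 0.56, limma, adjusted p = 0.624). Gnl3 had 57.0, 87.1 and 46.7 units in d24 and 57.6, 39.6 and 46.3 units in wt liver (0.37 ± 0.30, adjusted p = 0.619). Pprc1 had 20.2, 38.5 and 31.0 units in d24 and 30.8, 22.02 and 16.3 units in wt liver (0.37 ± 0.35, adjusted p = 0.693). Groups overlapped for all 3, and d24 library 2 was the highest for each. The unadjusted call was Ltv1, with 40.9, 46.8 and 26.9 units in d24 and 19.1, 18.7 and 25.9 units in wt liver (0.81 ± 0.31, adjusted p = 0.308).

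In spleen Myc had 54.6, 65.1 and 65.3 units in d24 and 60.5, 62.5 and 58.9 units in wt (0.02 ± 0.25, adjusted p = 0.987). Gnl3 had 80.4, 106 and 75.6 units in d24 and 88.1, 67.3 and 97.8 units in wt spleen (0.05 ± 0.27, adjusted p = 0.960). Pprc1 had 47.1, 64.0 and 52.2 units in d24 and 70.0, 55.7 and 30.3 units in wt spleen (0.14 ± 0.33, adjusted p = 0.912). These values overlapped throughout. Ltv1 was again the unadjusted call, with 48.5, 65.3 and 71.2 units in d24 and 39.9, 26.8 and 39.7 units in wt spleen (0.79 ± 0.29, adjusted p = 0.236).

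In thymus 1 d24 library stood apart. Myc had 95.6, 83.0 and 18.9 units in d24 and 69.0, 73.8 and 91.3 units in wt (-0.54 ± 0.49, adjusted p = 0.740). Gnl3 had 88.7, 72.8 and 27.6 units in d24 and 58.7, 54.9 and 76.2 units in wt thymus (-0.15 ± 0.37, adjusted p = 0.915). Pprc1 had 40.6, 34.5 and 6.08 units in d24 and 22.7, 31.6 and 35.97 units in wt thymus (-0.51 ± 0.57, adjusted p = 0.793). The third d24 library was the lowest of the 6 for all 3 genes, and without it the differences were 0.20 for Myc, 0.36 for Gnl3 and 0.34 for Pprc1. In that library the median of the 39 members was -0.73 from the wt mean, against 0.18 and 0.07 in the other d24 thymus libraries.

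Markers in the third d24 thymus library differed as well. Its summed proliferation markers were 1486, against 4455 and 4546 in the other d24 and 3644 to 4219 in the wt thymus libraries. Erythroid markers summed to 3832, against 98.7 and 92.1 in the other d24 libraries and 138 to 216 in wt, and hepatocyte markers to 1444, against 44.9 and 106 in the other d24 libraries and 12.5 to 22.5 in wt. Thymocyte and T cell markers summed to 4893 in it and to 6690 and 7610 in the other d24 libraries, all below the 8086 to 8785 of wt. The part of these in its low values was not tested.

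Targets of p53 stand beside these results because the tags conflict. Their sums in thymus were 1174 to 1375 in d24 and 752 to 1031 in wt, and in spleen 1293 to 1721 in d24 and 317 to 354 in wt. In liver they were 493 to 1334 in d24 and 231, 240 and 482 in the wt libraries. The paired-end libraries were normalised separately. There wt spleen had 1823 to 1910 after X-rays and 246 to 258 without, and all 12 targets rose. Paired-end wt thymus had 1884 to 2113 and 539 to 572, and wt liver 644 to 844 and 192 to 202. In spleen 8 of 12 rose in d24, with the cell cycle inhibitor Cdkn1a at 373 ± 49.3 units in d24 and 7.40 ± 1.96 units in wt. Neutrophil and precursor markers fell in 10 of 12 cases in d24 spleen and in 6 of the 10 tested in d24 liver, with sums of 120 to 1032 in d24 and 3029 to 9096 in wt spleen. In liver these sums overlapped, at 62.7 to 1280 in d24 and 480 to 1099.7 in wt, and d24 library 2 was the highest of the 6. Among genes tied to Myc, Mxd3, another Max partner that represses Myc sites, fell by 1.70 on the log2 scale in d24 spleen (SE 0.35) and the folate enzyme gene Mthfd2 rose by 1.32 ± 0.27. B cell markers fell in 1 of 10 cases in d24 spleen, but their sums did not overlap, at 68.4 to 366 in d24 and 513 to 707 in wt spleen, and in liver 1 of the 6 tested fell, with 7.69 to 8.29 in d24 and 31.1 to 89.1 in wt. Thymocyte and T cell marker sums did not overlap either, at 46.7 to 138 in d24 and 142 to 185 in wt spleen and 17.3 to 24.2 in d24 and 40.3 to 87.98 in wt liver. A d24 effect, an effect of the tagged treatment and these shifts cannot be told apart for the module.

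The interaction of genotype with tissue called 0 of 39 members, where 0.988% of the 16092 genes tested were called. Its highest F values were 3.00 for Bop1, 2.52 for Mybbp1a, which binds Myb and affects ribosomal RNA synthesis, and 2.22 for Wdr43. Nolc1 had 2.21, the large subunit GTPase Gnl2 1.86 and Utp4, a processome protein, 1.61 (limma, adjusted p from 0.491 to 0.698).

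**Figure D5:**
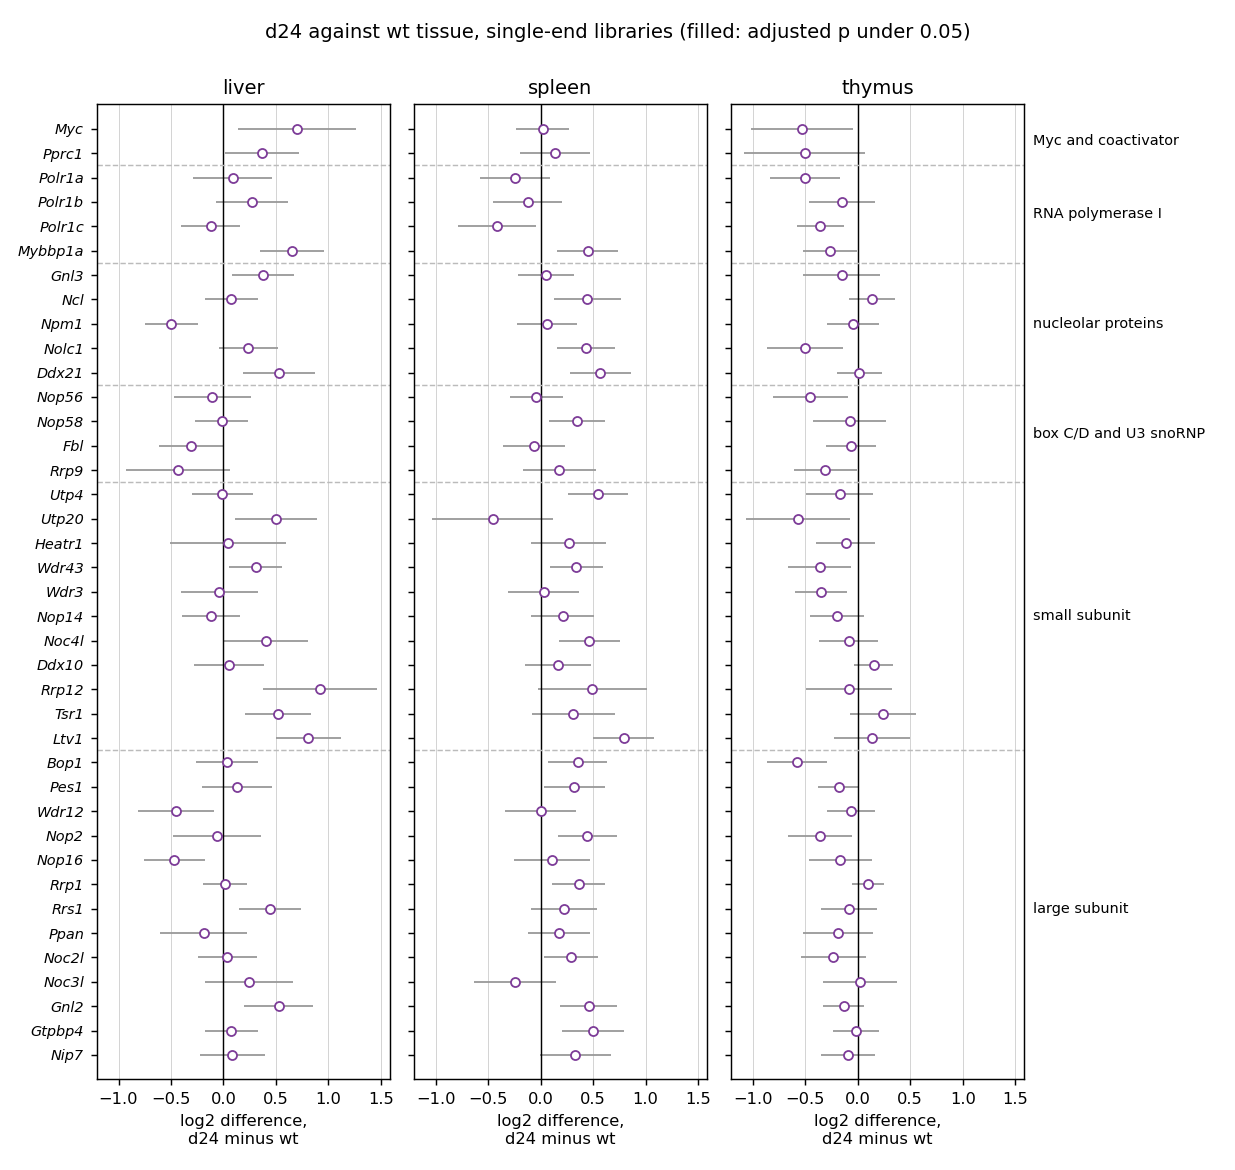
Log2 difference of d24 minus wt (x axis, ± SE) for each of the 39 genes (y axis, grouped by role) in single-end liver, spleen and thymus, with filled points for adjusted p under 0.05. No point is filled, and the medians are 0.08 in liver, 0.27 in spleen and -0.15 in thymus.

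Untreated wt tissues differed in most members on the deposited scale, but the share called was no larger than that of all genes tested. The direction of these differences also depends on how libraries are scaled. On the deposited scale, 22 members were higher and 2 lower in thymus than in liver, where 42% of the 15141 genes tested were higher and 44.4% lower. Spleen against liver gave 32 higher and 1 lower (43% and 42.9% of genes), and thymus against spleen 3 higher and 21 lower (35.8% and 36.8% of genes). Scaled by column totals, 39 members were higher in thymus than in liver, beside 74.7% of all genes, and 39 in spleen than in liver, beside 64.6%. In thymus against spleen 18 were higher and 1 lower, beside 63.1% and 18.4% of all genes. With that scaling the medians of the members were 2.00 in thymus and 1.67 in spleen against liver and 0.32 in thymus against spleen, beside medians of all genes of 1.496, 0.86 and 0.58. Relative to all genes, members thus stayed above in both comparisons with liver and below in thymus against spleen.

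On the deposited scale Myc averaged 43.5 ± 2.37 units in thymus, 40.6 ± 9.40 in spleen and 15.8 ± 12.8 in liver, where 1 of the 3 liver libraries had 30.5. Thymus and spleen did not differ beyond their spread. Gnl3 followed the order of 71.0 ± 11.2 in spleen, 49.2 ± 2.82 in thymus and 34.5 ± 5.04 in liver. Nucleophosmin (Npm1), a nucleolar chaperone, had 691 ± 32.4 units in thymus and 283 ± 12.1 units in liver (1.29 ± 0.10), and 754 ± 97.5 units in spleen. Nop56 had 123 ± 6.28 units in thymus, 161 ± 23.4 units in spleen and 37.4 ± 7.78 units in liver. Fibrillarin (Fbl), the methyltransferase of box C/D snoRNPs, had 113 ± 9.28 units in spleen and 48.9 ± 2.17 units in liver.

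Some members ran against that order on the deposited scale. Nop16 had 21.5 ± 1.03 units in thymus and 40.4 ± 3.80 units in liver (-0.89 ± 0.09), and 27.0 ± 1.62 units in spleen, but with column-total scaling the differences from liver were 0.76 in thymus and 0.46 in spleen. Polr1a, the largest subunit of polymerase I, had -0.36 ± 0.13 in thymus against liver and 1.29 with column-total scaling. That call was also lost under 7 other settings (-0.36 to -0.27), namely median-ratio scaling, edgeR, DESeq2, 1 fit of 18 libraries, and without untreated liver library 1 or untreated thymus library 1 or 2. Ddx10, an RNA helicase, was higher in thymus than in both other tissues (1.13 ± 0.10 against liver and 0.56 ± 0.10 against spleen), as was Wdr12 (1.12 ± 0.10 and 0.51 ± 0.10). Other members of smallest p against liver were Ncl in thymus (0.93 ± 0.12), Noc2l in spleen (1.30 ± 0.08) and Ddx21, a nucleolar helicase, in spleen (1.36 ± 0.14). In thymus against spleen Rrp1 was higher (0.27 ± 0.08), and Noc2l (-0.68 ± 0.08), Fbl (-0.61 ± 0.08), Ppan (-0.98 ± 0.16), Polr1a (-0.80 ± 0.13) and Pprc1 (-1.18 ± 0.20) were lower, although Fbl stood at 0.02 with column-total scaling. Per kilobase of exon, with all annotated exons of a gene merged, Npm1 and Ncl (nucleolin) had the highest levels of the module in all 3 untreated tissues, at 259 ± 12.2 and 69.7 ± 3.77 in thymus, 283 ± 36.6 and 76.7 ± 14.0 in spleen, and 106 ± 4.54 and 36.5 ± 2.33 in liver. Myc ranked 10 of 39 per kilobase in thymus, 15 in spleen and 26 in liver.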

How the data were processed

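The paired-end and single-end libraries come in separate deposited tables, whose values are a normalised signal: the read count of a gene scaled to the effective size of its library, with a composition factor. Per the submitters' processing notes edgeR and mm10 were used; the sources used here name no aligner, no counter and no strand setting. All tested values were whole multiples of 1 read's worth (100% of values within 0.01 of a step), so reads were recovered for edgeR and DESeq2. Of the 36 paired-end columns, 18 match no library here and were not used. The tables were normalised separately and never joined in a test. Design assumed plain CPM; the test for normalised values was kept.

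A gene was tested where 3 or more libraries reached a signal of 1. The test was limma 3.58.1 (R 4.3.3, eBayes with trend, 2-sided) on log2(signal + 0.5), and p-values of all genes were adjusted together by Benjamini-Hochberg, with a threshold of 0.05. Scripts were tested on simulated data. All 39 members passed the filter in every comparison. Members and lists were chosen with earlier results of these data known. The text names Myc, Gnl3 and Pprc1 in every X-ray and d24 comparison, the 5 called members of smallest p in each direction, the 6 highest F values, and up to 2 called genes of each list. Others were named after their values were seen, in particular those given for role, for lack of a call, or for the blocked fit. Alternatives were pseudocounts of 0.1 and 2, no filter or a mean of at least 5, median-ratio scaling, limma without trend, edgeR 4.0.16 (quasi-likelihood test), DESeq2 1.42.0, a replicate block, 1 fit of 18 libraries and leaving out each library. Column-total scaling was added after the data were seen. Deviations of same-numbered libraries correlated at 0.177 to 0.241 in spleen X-ray, every pair over 0.1, so the numbers were taken as pairs there. In thymus X-ray they correlated at 0.055 to 0.476 and were not taken as pairs. No label states a pairing. Exons came from GENCODE and symbols from RefSeq (GRCm38.p6). Several members host small nucleolar RNAs in introns, and no source used here says whether intron reads were counted. The 8 short promoter windows were chosen after their values were seen.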

Additional observations from a re-analysis of the deposited data

Results flagged for a closer look

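Members with opposite or unequal X-ray differences between tissues stood out by the F test of treatment by tissue. Gnl3 had an F of 28.0, Rrp12 22.2, Nop16 19.8, Polr1b 18.9, Ltv1 18.5, Heatr1 17.7 and Pprc1 7.51. In irradiated against untreated thymus all 7 fell, by 0.61 to 1.40 on the log2 scale, and Rrp12, Nop16 and Heatr1 rose in spleen. None of the 7 was called in liver by limma.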

How the results depend on the processing

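Labels do not name the animals, 3 libraries a group limit each test, and tags conflict with titles in the single-end libraries. Of 879 values of single genes under alternatives, 836 kept direction and side of the threshold, 19 lost a call, 3 gained one and 21 changed sign, and 206 counts of called members stayed within 1.5 times while 12 did not. The cause of each change below was not tested. In liver X-ray, DESeq2 called 10 members, beside 4.76% of all genes, and 1 fit of 18 libraries 12, beside 10.1%. In spleen X-ray, DESeq2 called 14, beside 43.9% of all genes, the replicate block 18, beside 42.6%, and column-total scaling 3, beside 35.1%. The block moved no other count by over 1.5 times. In thymus X-ray, 1 fit of 18 libraries called 22, beside 11.8% of all genes. Column-total scaling called 39 members in untreated thymus against liver and 19 in the X-ray by tissue test, beside the shares of all genes given above. Under it Nop16 and Polr1a turned to 0.76 and 1.29 in thymus against liver, Nop16 to 0.46 in spleen against liver, Fbl to 0.017 in thymus against spleen and Pprc1 to -0.052 in X-ray spleen, where edgeR gave Gnl3 at 0.0010. Leaving out 1 library gave 0 to 15 called members in liver X-ray (15 without X-ray library 1), beside 0.0684% to 21.6% of all genes. It gave 3 to 18 in spleen X-ray, beside 23.8% to 53.3%, and 28 to 32 in thymus X-ray, beside 11.6% to 20.9%. With no library left out, the X-ray by tissue test called 30.5% of all genes, and the d24 tests 0.526% in liver and 2.28% in spleen. In d24 thymus 0.00724% of all genes were called higher and 0% lower. Leaving out 1 library gave 26 to 36 members in the X-ray by tissue test. In each d24 comparison it gave 0, beside 0.0299% to 2.31% of all genes in liver. Over these fits, X-ray differences in liver ran from -0.89 to 0.11 for Myc and from -0.51 to 0.027 for Pprc1, and in spleen from -0.23 to 0.11 for Myc and from -0.24 to 0.065 for Gnl3. In d24 spleen they ran from -0.024 to 0.10 for Myc, -0.10 to 0.16 for Gnl3 and -0.21 to 0.39 for Pprc1, and in d24 thymus from -0.95 to 0.20 for Myc, -0.48 to 0.36 for Gnl3 and -0.99 to 0.34 for Pprc1.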
